A study of Mus musculus with 9 samples.

Results

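Complement is a cascade of secreted proteins, and the 10 genes described here encode components of its early steps together with the receptors for its 2 anaphylatoxin fragments. They are *C1qa*, *C1qb*, *C1qc*, *C1ra*, *C1s1*, *C3*, *C4b*, *Cfb*, *C3ar1* and *C5ar1*. The genes were chosen by name, with earlier results of these arrays known. Each was followed through the probe set that the array annotation gives to that symbol alone, or through the brightest of several, as judged by the average of all 9 arrays. In this way 9 of the 10 genes were measured, out of 17097 genes measured in all, and these 9 genes had 12 probe sets. The tenth gene, *C3*, was not analysed here.

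The RNA came from brain tissue around the injection site, in the injected hemisphere, of male C57Bl/6J mice aged 10-12 weeks. Mice had received an injection into the striatum of either PBS or lipopolysaccharide (LPS, a bacterial cell wall component that triggers acute inflammation), and were perfused with saline before dissection. Tissue was taken 4 d after PBS (PBS), 1 d after LPS (LPS 1 d) or 4 d after LPS (LPS 4 d). The study treats the earlier time as the induction phase and the later time as the resolution phase of a self-limiting inflammatory response. Each group had 3 arrays. The RNA of 3 mice was pooled for every array, so that the spread between arrays is the spread between pools. The PBS tissue was all taken at 4 d, and at 1 d an effect of LPS and an effect of the time since surgery cannot be told apart. Neuronal and striatal genes (*Snap25*, *Drd1*, *Drd2* and *Penk* among them) were well above background on all 9 arrays, and 0 of the 8 measured passed the test in any comparison.

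In the classical pathway, C1q binds to antibody complexes, dying cells or other targets and activates the attached proteases C1r and C1s, which cleave C4 and C2. The convertase formed in this way cleaves C3, and in the alternative pathway factor B provides the protease of a second C3 convertase that amplifies the reaction. The released fragments C3a and C5a, the anaphylatoxins, signal through the receptors C3aR1 and C5aR1. In the brain, microglia are the main source of C1q, while astrocytes, endothelial cells and other cells can make C3, C4, C1r, C1s and factor B. C1q and C3 are also known for marking synapses and debris for removal by microglia.

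Values are deposited log2 expression values, on which an increase of 1 is a doubling. A gene passed the test when the limma adjusted p was under 0.05 and the fold change at least 1.5. Background was taken as 3.49 on this log2 scale, the level of the brightest of 23 nonspecific controls. Levels of different genes were not compared, because each probe set has its own response. Where linear levels are summed over a list of genes, the brightest probe sets weigh most, and the sums are read between groups only.

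At 1 d after LPS, 9 of the 9 measured genes were higher than after PBS, against 3.86% of all 17097 genes, and 0 were lower, against 0.532% (limma, and 0 were lower at an unadjusted p under 0.05 too). At 4 d, 8 of 9 were higher, against 4.21% of all genes, and 0 were lower, against 0.205% (0 at an unadjusted p under 0.05). Between the times the genes divided. From 1 d to 4 d, the 3 C1q genes and *C3ar1* rose further (4 of 9, against 1.84% of all genes), whereas *C1ra*, *C1s1*, *Cfb* and *C5ar1* fell (4 of 9, against 1.37%). *C4b* was the remaining gene. With ordinary tests in place of the moderated ones of limma, none of the 4 falls passed (adjusted p between 0.0657 and 0.156), and of the 4 rises those of the C1q genes passed and that of *C3ar1* did not (adjusted p = 0.06). The median log2 change of the 9 genes was 2.16 at 1 d and 2.15 at 4 d relative to PBS, beside medians of -0.027 and -0.024 over all genes. The study had already placed the C1q genes and *C3ar1* in a cluster raised mainly at 4 d, from these same arrays. Since the genes were chosen with such results known, the shares over all genes give scale only and are no test of the group.

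In both comparisons with PBS, the 3 LPS arrays lay above the 3 PBS arrays for 9 of 9 genes, which was so for 11.5% of all genes at 1 d and 12.0% at 4 d. Between 1 d and 4 d, the arrays did not overlap for any of the 9 genes, with 5 higher at 4 d (11.4% of all genes) and 4 lower (9.76%). Both comparisons with PBS use the same 3 PBS arrays and are therefore not independent of each other. The comparison of 4 d with 1 d uses no PBS array for its difference.

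**Figure D1:**
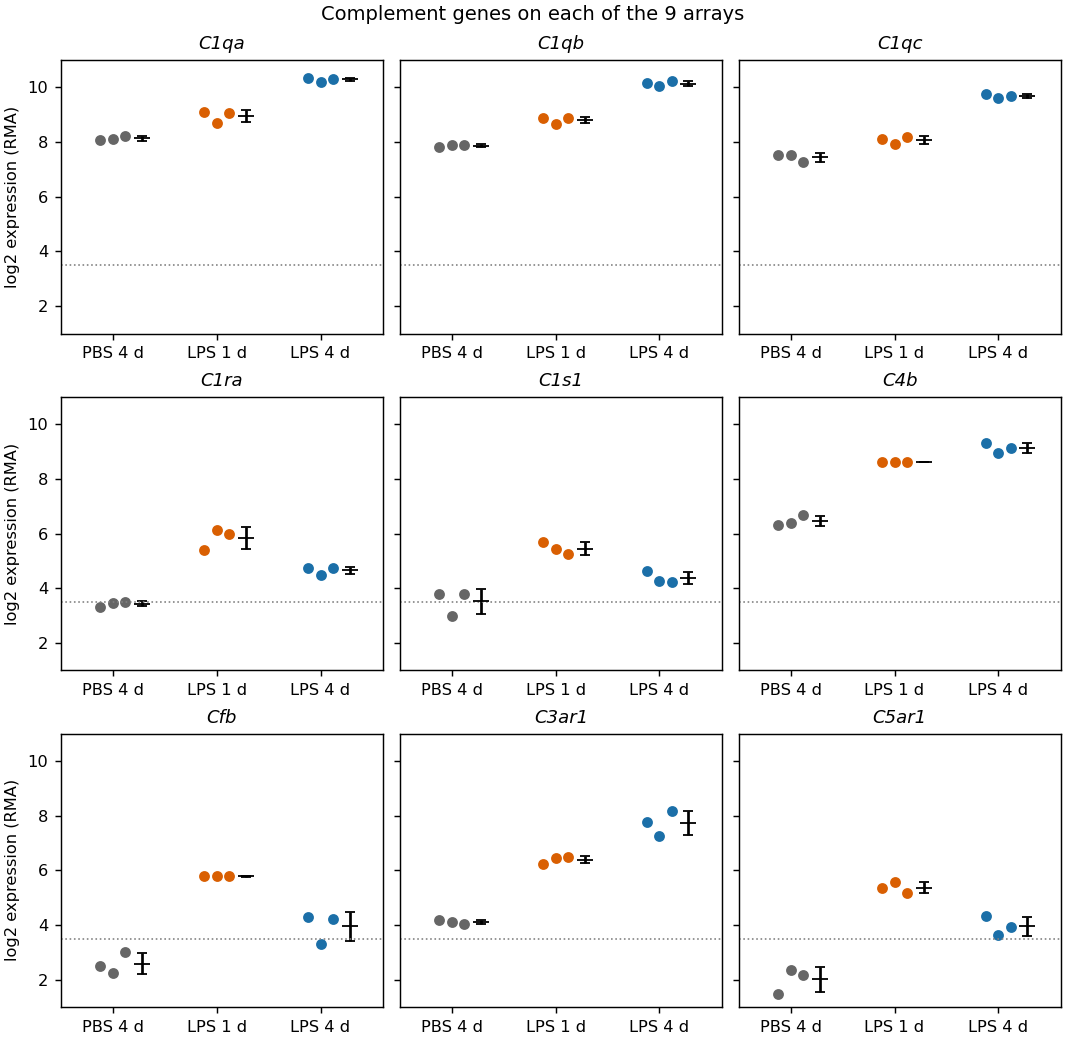
Log2 expression (vertical axis) of the 9 measured genes on each of the 9 arrays, in 3 groups of 3 (PBS 4 d, LPS 1 d, LPS 4 d). Points are single arrays, bars are the mean and SD of a group, and the dotted line is the background level of 3.49. The 3 C1q genes and *C3ar1* step up from 1 d to 4 d, *C4b* is high at both times, and *C1ra*, *C1s1*, *Cfb* and *C5ar1* are highest at 1 d.

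The 3 C1q chains had closely similar profiles. C1q is assembled from the products of *C1qa*, *C1qb* and *C1qc*, the A, B and C chains. In the RefSeq annotation of GRCm38.p6 the 3 genes lie side by side on chromosome 4 within 18719 bases, in the order *C1qb*, *C1qc*, *C1qa*, with no other gene between them. The promoter windows of *C1qb* and *C1qc*, genes whose levels moved together over the 9 arrays, are given as 250 bases before to 50 bases after an annotated transcript start. They lie at chr4:136886151-136886450 and chr4:136892865-136893164, both on the minus strand, and are written 5′ to 3′. Capitals mark GAGGAA, a purine-rich core bound by Ets factors such as the myeloid factor PU.1, or its reverse complement.
C1qb: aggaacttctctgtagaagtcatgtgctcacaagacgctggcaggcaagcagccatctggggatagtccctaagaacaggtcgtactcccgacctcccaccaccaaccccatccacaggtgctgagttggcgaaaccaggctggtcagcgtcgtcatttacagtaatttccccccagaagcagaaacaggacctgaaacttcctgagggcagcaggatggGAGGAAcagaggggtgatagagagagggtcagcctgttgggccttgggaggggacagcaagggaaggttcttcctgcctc
C1qc: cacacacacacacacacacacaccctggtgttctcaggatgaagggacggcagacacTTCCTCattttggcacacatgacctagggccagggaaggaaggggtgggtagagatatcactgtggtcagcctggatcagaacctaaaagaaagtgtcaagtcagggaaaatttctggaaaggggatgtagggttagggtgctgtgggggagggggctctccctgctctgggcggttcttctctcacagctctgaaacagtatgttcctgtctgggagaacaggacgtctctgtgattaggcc

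The *C1qb* window holds this motif at positions 221 to 226, counted from 1 at the 5′ end, and the *C1qc* window holds it on the opposite strand at positions 58 to 63. Such a match is common, since 28.3% of 32851 RefSeq windows of the same length hold it on 1 strand or the other. A window was at hand for 7 of the 10 genes, and 3 of these 7 held the motif (*C1qb*, *C1qc* and *C1ra*). The interferon-stimulated response element, searched as GAAA and GAAA with NN between them, was in 0 of the 7 and in 3.44% of all windows. The NF-kB motif, searched as GGGA and TTCC with NN between them, was in 0 of the 7 and in 1.47% of all windows. These are matches of letters in short windows, on either strand, and no binding was measured.

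*C1qa* had log2 values of 8.06, 8.13 and 8.24 on the PBS arrays, 9.11, 8.71 and 9.05 at 1 d after LPS, and 10.33, 10.21 and 10.33 at 4 d. All arrays at 4 d were thus above all arrays at 1 d, and these above all PBS arrays. Its rise over PBS was 0.81 at 1 d (standard error 0.11, 1.76-fold, adjusted p = 0.00327) and 2.15 at 4 d (standard error 0.11, 4.44-fold, adjusted p = 1.19e-05). *C1qb* had values of 7.81, 7.88 and 7.91 after PBS, 8.87, 8.67 and 8.89 at 1 d, and 10.15, 10.04 and 10.23 at 4 d. The same order of groups held, with a rise of 0.94 at 1 d (standard error 0.090, 1.92-fold, adjusted p = 0.000319) and 2.27 at 4 d (4.83-fold, adjusted p = 4.91e-06).

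*C1qc* stood at 7.54, 7.53 and 7.26 after PBS, at 8.13, 7.92 and 8.18 at 1 d, and at 9.75, 9.62 and 9.69 at 4 d. Its groups did not overlap either, but the rise at 1 d was only just past the fold threshold, at 0.64 (standard error 0.11, 1.56-fold, adjusted p = 0.01). Without PBS replicate 3 or LPS 1 d replicate 3 it was under 1.5-fold. At 4 d *C1qc* was 2.25 above PBS (4.75-fold, adjusted p = 8.78e-06). The direct comparison of 4 d with 1 d gave further rises of 1.33 for *C1qa* (adjusted p = 0.000528), 1.33 for *C1qb* (adjusted p = 0.000286) and 1.61 for *C1qc* (adjusted p = 0.000281). The 3 profiles, each centred on its own mean over the 9 arrays, differed by a root mean square of 0.081 log2 units between *C1qa* and *C1qb*, 0.168 between *C1qa* and *C1qc* and 0.171 between *C1qb* and *C1qc*.

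Markers of microglia rose with the C1q genes at 4 d, whereas at 1 d few did. Relative to PBS, 1 of 10 microglial markers was higher and 3 were lower at 1 d, while 6 were higher and 0 lower at 4 d, with a median log2 change of -0.016 at 1 d and 1.21 at 4 d. Between the times 9 of 10 were higher at 4 d. *Aif1*, the gene for the microglial and macrophage protein Iba1, rose by 1.21 at 1 d (adjusted p = 0.00133) and 3.11 at 4 d (adjusted p = 8.48e-06). *Fcrls*, a microglial Fc receptor-like gene, was at -0.53 at 1 d (adjusted p = 0.451) and rose by 2.23 at 4 d (adjusted p = 0.00318). *Gpr34*, a lysophospholipid receptor gene of microglia, passed as lower at 1 d (adjusted p = 0.00385), where its mean of 3.24 was below background, so that it was at least 4.29-fold higher after PBS. At 4 d its log2 change was -0.13 (adjusted p = 0.9).

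Summed on the linear scale, the 10 markers ranged over 926-977 after PBS, 692-991 at 1 d and 2273-2630 at 4 d. The summed linear level of the 3 C1q genes ranged over 677-701, 1068-1299 and 3028-3308 in the same groups. The groups of C1q sums did not overlap, while the microglial sums after PBS and at 1 d did. On LPS 1 d replicate 2 both sums were the lowest of their group, and on LPS 4 d replicate 2 as well. In whole tissue, a change in the number of cells of a type and a change in RNA per cell cannot be told apart. Markers of monocytes and recruited macrophages, described further below, were also above PBS, 8 of 10 at 1 d and 7 at 4 d. From 1 d to 4 d, 1 of them (*Ms4a7*) rose and 3 fell. In the study's flow cytometry, microglial number did not rise significantly after LPS, while recruited monocyte-derived macrophages accumulated. The part of microglia or of recruited macrophages in the C1q values was not tested.

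The proteases that C1q carries were highest at 1 d. *C1ra* encodes C1r, which activates C1s, and *C1s1* encodes C1s, which cleaves C4 and C2. Both genes are on chromosome 6, and the promoter windows of both are shown because the genes fell together between 1 d and 4 d. The windows are chr6:124512371-124512670 on the plus strand for *C1ra* and chr6:124542310-124542609 on the minus strand for *C1s1*, which has a further annotated start nearby. Capitals mark TTCNNNGAA, the gamma-activated sequence bound by STAT factors, and the GAGGAA core or its reverse complement.
C1ra: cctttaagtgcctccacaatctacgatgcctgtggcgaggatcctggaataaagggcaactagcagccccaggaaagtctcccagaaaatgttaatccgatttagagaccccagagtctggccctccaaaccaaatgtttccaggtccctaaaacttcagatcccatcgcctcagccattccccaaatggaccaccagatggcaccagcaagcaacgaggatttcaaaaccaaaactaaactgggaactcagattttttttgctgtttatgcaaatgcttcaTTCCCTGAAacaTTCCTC
C1s1: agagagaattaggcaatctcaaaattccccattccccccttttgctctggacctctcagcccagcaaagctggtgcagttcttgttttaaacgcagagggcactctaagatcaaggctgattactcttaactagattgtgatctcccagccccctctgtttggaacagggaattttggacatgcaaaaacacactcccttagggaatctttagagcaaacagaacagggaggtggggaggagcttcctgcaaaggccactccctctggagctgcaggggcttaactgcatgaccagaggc

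The *C1ra* window holds TTCNNNGAA at positions 283 to 291, and the GAGGAA core on the opposite strand at positions 295 to 300. Both matches lie after the annotated transcript start, not before it. Of all windows, 8.3% hold TTCNNNGAA, and among the 7 of these complement genes *C1ra* was the 1 that did. The *C1s1* window holds none of the motifs searched.

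*C1ra* had log2 values of 3.32, 3.47 and 3.49 after PBS, 5.39, 6.14 and 6.00 at 1 d after LPS, and 4.73, 4.49 and 4.73 at 4 d. The PBS arrays lay at the background level, the 1 d arrays were the highest, and the 4 d arrays lay between. *C1ra* was 2.41 above PBS at 1 d (standard error 0.18, 5.32-fold, adjusted p = 6.42e-05) and 1.22 above it at 4 d (standard error 0.18, 2.33-fold, adjusted p = 0.0052). Since the PBS mean was not above background, these folds are better read as at least 5.10-fold and at least 2.23-fold, with each PBS array set at no less than the background level. From 1 d to 4 d *C1ra* fell by 1.19 (adjusted p = 0.00881).

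*C1s1* had values of 3.77, 3.00 and 3.80 after PBS, 5.68, 5.43 and 5.24 at 1 d, and 4.62, 4.26 and 4.24 at 4 d. Again the 1 d arrays were highest, and the 4 d arrays lay closer to the PBS arrays without overlapping them. *C1s1* rose by 1.93 at 1 d (standard error 0.22, 3.81-fold, adjusted p = 0.00102). PBS replicate 2 was below background and the PBS mean of 3.52 was only just above it, so that the size of this rise is uncertain. At 4 d the difference from PBS of 0.85 did not pass the test (95% confidence interval 0.35 to 1.35, adjusted p = 0.0788). The fall of 1.08 from 1 d to 4 d passed narrowly (adjusted p = 0.041) and was lost when any 1 array other than PBS replicate 2 was left out, with adjusted p between 0.0517 and 0.128.

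Both genes have a close paralog, *C1rb* and *C1s2*, and the probe set of *C1s1* is of a kind that can match several related transcripts, so that the share of signal from the paralogs is uncertain. The probe set annotated to *C1rb* can also match related transcripts, so that part of its signal may come from *C1ra*, which was not tested. *C1rb* had means of 2.20 after PBS and 2.79 at 4 d on it, both below the background level, and 4.31 at 1 d. Its rise at 1 d passed the test (adjusted p = 2.12e-05) and was at least 1.77-fold against the background level. It also passed as higher than PBS at 4 d (adjusted p = 0.0358) and as lower at 4 d than at 1 d (adjusted p = 0.000501), with the size of the first not measured below background.

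C4 is the next component, cleaved by C1s and deposited on targets. *C4b* had log2 values of 6.31, 6.39 and 6.67 after PBS, 8.63, 8.62 and 8.61 at 1 d, and 9.31, 8.94 and 9.12 at 4 d. Every LPS array was well above every PBS array, and the 4 d arrays were a little above the 1 d arrays. *C4b* rose by 2.16 at 1 d (standard error 0.12, 4.48-fold, adjusted p = 1.5e-05) and by 2.67 at 4 d (standard error 0.12, 6.36-fold, adjusted p = 7.09e-06). The further 0.50 between 1 d and 4 d was 1.42-fold, under the fold threshold, and did not pass the test (95% confidence interval 0.23 to 0.78, adjusted p = 0.0767). Over 18 alternative settings its log2 change was 0.41 to 0.59 and its adjusted p 0.0067 to 0.199, and in none were both thresholds met. Settings that change only the test or the choice of probe set could not alter this fold. Signal from its paralog *C4a*, which was not analysed here, may contribute to this probe set.

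*Cfb* encodes factor B, the protease of the alternative pathway convertase. Its log2 values were 2.51, 2.24 and 3.00 after PBS, 5.77, 5.77 and 5.81 at 1 d, and 4.31, 3.32 and 4.21 at 4 d. The PBS arrays were below background, the 1 d arrays were close to each other and well above it, and at 4 d replicate 2 was again below it. *Cfb* rose by 3.20 at 1 d (standard error 0.26, 9.20-fold, adjusted p = 0.000126), which against the background level is at least 4.90-fold. At 4 d it was 1.36 above PBS (standard error 0.26, 2.57-fold, adjusted p = 0.0227), or at least 1.37-fold against the background level. That call at 4 d was lost in 4 of the 9 fits that left out 1 array (PBS replicate 1 or 2, LPS 4 d replicate 1 or 3), with adjusted p between 0.0809 and 0.0874. From 1 d to 4 d *Cfb* fell by 1.84 (adjusted p = 0.00713).

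Among the markers of other cell types, 8 of 10 of monocytes and recruited macrophages, 7 of 11 of neutrophils, 4 of 10 of endothelium, 2 of 10 of astrocytes and 2 of 10 of fibroblasts and pericytes were higher than PBS at 1 d, where *C1ra*, *C1s1* and *Cfb* were highest. For neutrophils, 1 marker was higher than PBS at 4 d, and 4 were lower at 4 d than at 1 d. In linear units their sum ranged over 114-196 in the PBS group, 1670-4517 in the LPS 1 d group and 307-526 in the LPS 4 d group. *S100a9*, which encodes a calprotectin subunit, rose by 5.87 at 1 d (adjusted p = 0.000336), and *S100a8*, which encodes the other, by 5.59 (adjusted p = 0.000777). *Il1r2*, the decoy receptor of interleukin-1, was below background after PBS and at least 9.44-fold higher at 1 d (adjusted p = 0.000668). Of the 11 markers, 2 (*Camp* and *Elane*) were at background in all groups.

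Fibroblast and pericyte markers had 2 of 10 above PBS at 1 d and 3 of 10 at 4 d, while 2 (*Col1a2* and *Pdgfra*) were at background in every group. *Dcn*, the proteoglycan decorin, rose by 2.40 at 1 d (adjusted p = 3.25e-05) and was 1.45 above PBS at 4 d (adjusted p = 0.000776). Summed linear levels of this list were 715-764 in the PBS group, 1037-1364 in the LPS 1 d group and 1163-1267 in the LPS 4 d group. The similar sums of the LPS groups hide opposite changes. From 1 d to 4 d, 1 of the 10 markers, *Rgs5*, was higher (0.85, adjusted p = 0.00124) and 1, *Dcn*, was lower (-0.95, adjusted p = 0.014). Endothelial markers had 4 of 10 higher at each time, and summed levels of 1171-1231, 1763-1851 and 1697-1824. *Ly6c1*, a surface gene of brain endothelium, was higher by 1.08 at 1 d (adjusted p = 6.74e-05). Ly6C is also the antigen by which the study sorted blood monocytes into populations. From 1 d to 4 d, 2 of the endothelial markers were higher and 1, *Ly6c1*, was lower (-0.63, adjusted p = 0.00372). Astrocyte markers had 2 of 10 higher at each time. *Gfap*, the gene for the astrocyte intermediate filament, rose by 2.83 at 1 d and 2.50 at 4 d (adjusted p = 3.79e-06 and 6.93e-06), and summed levels of the list were 6249-6637, 6908-6989 and 7180-7844 in the 3 groups. The part of any of these cell types in the protease and factor B values was not tested.

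Plasma complement proteins come mainly from the liver, and 6 of the 9 hepatocyte markers measured, *Alb* included, were at background in every group. *Trf*, the gene for transferrin, which oligodendrocytes also express, was the only one of them to pass the test, with a rise of 1.07 at 1 d (adjusted p = 0.00588). Of 7 oligodendrocyte markers, 2 were lower at 1 d (*Opalin* by -1.15 and *Cnp* by -0.63, adjusted p = 0.000463 and 0.0148) and 0 at 4 d. The erythrocyte gene *Hba-a1* had a log2 change of -1.47 from 1 d to 4 d (adjusted p = 0.0361).

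The C1q genes and the group of *C1ra*, *C1s1* and *Cfb* were then set against each other within each array. For each array, the mean log2 distance of a group of genes from its own PBS mean was taken, which needs no comparison of levels between genes. The PBS means of *C1ra* and *Cfb* were below background, so that the sizes of the distances of their group are uncertain. Against the background level *Cfb*, for example, was at least 2.29 higher at 1 d and at least 0.45 higher at 4 d. On the 3 arrays at 1 d, the C1q genes were 0.89, 0.62 and 0.89 above their PBS mean, while the other 3 genes were 2.44, 2.60 and 2.50 above theirs. At 4 d the C1q genes were 2.26, 2.14 and 2.26 above, and the other 3 were 1.37, 0.84 and 1.21 above. The order of the 2 groups was thus opposite on every array of the 2 times.

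The C1q distance minus that of the other 3 genes was -1.55, -1.99 and -1.61 at 1 d and 0.89, 1.30 and 1.05 at 4 d, and between -0.27 and 0.31 on the PBS arrays. The group means were -1.72 at 1 d and 1.08 at 4 d. No p is given for this score, since the genes were grouped with earlier results of these arrays known. The tests that bear on it are those of the single genes, in which all 3 C1q genes rose from 1 d to 4 d and all of *C1ra*, *C1s1* and *Cfb* fell, with the weaker evidence for *C1s1* given above.

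**Figure D2:**
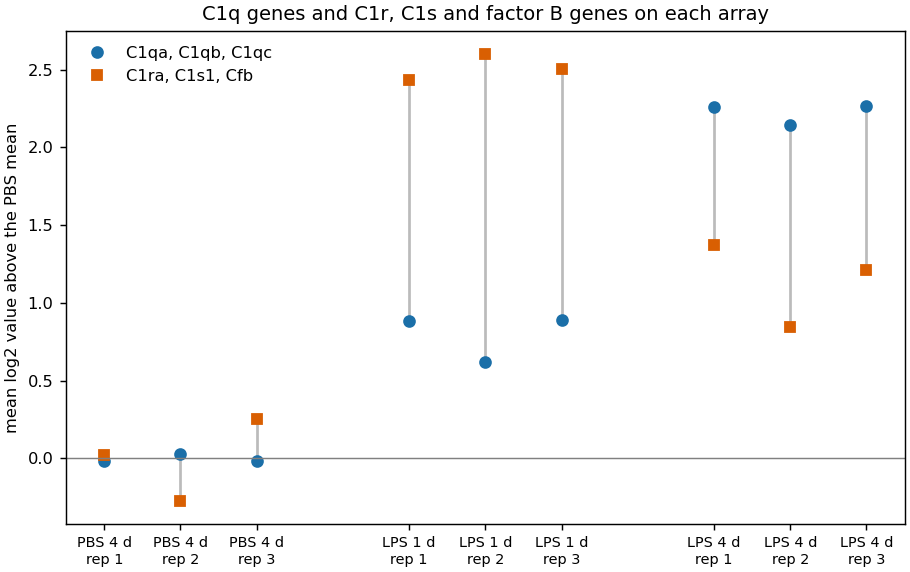
Mean log2 distance from the PBS mean (vertical axis) of *C1qa*, *C1qb* and *C1qc* (circles) and of *C1ra*, *C1s1* and *Cfb* (squares) on each of the 9 arrays. Grey lines join the 2 values of 1 array. The squares are higher on all 3 arrays at 1 d after LPS and the circles on all 3 arrays at 4 d. The PBS means of *C1ra* and *Cfb* were below background, so that the heights of the squares are uncertain.

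The anaphylatoxin receptors also parted after 1 d. *C3ar1*, the receptor of C3a, had log2 values of 4.18, 4.12 and 4.03 after PBS, 6.24, 6.44 and 6.47 at 1 d, and 7.76, 7.27 and 8.16 at 4 d. Its groups rose in that order without overlap. *C3ar1* was 2.28 above PBS at 1 d (standard error 0.19, 4.85-fold, adjusted p = 0.000145) and 3.62 above it at 4 d (standard error 0.19, 12.3-fold, adjusted p = 1.23e-05). That was the largest measured rise at 4 d among the 9 genes. The sizes for *C1ra*, *Cfb* and *C5ar1* are uncertain, since their PBS means were below background. The rise of 1.34 from 1 d to 4 d passed the test (adjusted p = 0.007), but not with ordinary tests (adjusted p = 0.06).

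Another *C3ar1* probe set (number 2 in the plot of receptor probe sets) read 3.63, 2.60 and 4.14 after PBS, 5.25, 5.85 and 5.61 at 1 d, and 7.02, 6.70 and 7.40 at 4 d. The last of them read 2.81, 2.47 and 2.78 after PBS, 5.70, 6.18 and 6.14 at 1 d, and 7.06, 6.63 and 7.44 at 4 d. Both had the same order of groups as the probe set used. At 4 d they were 3.58 and 4.36 above PBS, from PBS means below background. From 1 d to 4 d they differed by 1.47 (adjusted p = 0.0811, not past the test) and rose by 1.04 (adjusted p = 0.0382).

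*C5ar1*, the receptor of C5a and a strong attractant receptor of neutrophils and other myeloid cells, had log2 values of 1.48, 2.37 and 2.16 after PBS, 5.35, 5.56 and 5.17 at 1 d, and 4.31, 3.62 and 3.92 at 4 d. The PBS arrays were below background, and the 1 d arrays were the highest. *C5ar1* rose by 3.35 at 1 d (standard error 0.24, 10.2-fold, adjusted p = 5.76e-05). Against the background level the rise was at least 3.65-fold. At 4 d it was 1.94 above PBS (standard error 0.24, 3.85-fold, adjusted p = 0.002), or at least 1.37-fold against background, and it fell by 1.41 from 1 d to 4 d (adjusted p = 0.0179).

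The fall of *C5ar1* lost its call when LPS 1 d replicate 1 or 2, or LPS 4 d replicate 2 or 3, was left out, with adjusted p between 0.0555 and 0.0797. A second *C5ar1* probe set had a mean of 2.50 in the PBS group, 3.25 in the LPS 1 d group and 2.89 in the LPS 4 d group, all below background, and passed no test. Its log2 differences from PBS were 0.75 at 1 d (adjusted p = 0.125) and 0.39 at 4 d (adjusted p = 0.435). These differences, and that of -0.36 from 1 d to 4 d (adjusted p = 0.55), had the same signs as on the brighter probe set. Below background their sizes are not measured, and the values above rest on the brighter probe set alone. With the mean of both probe sets, *C5ar1* was 2.05 above PBS at 1 d and 1.17 above it at 4 d, and 4 d minus 1 d was -0.89, and all 3 differences still passed the test.

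**Figure D3:**
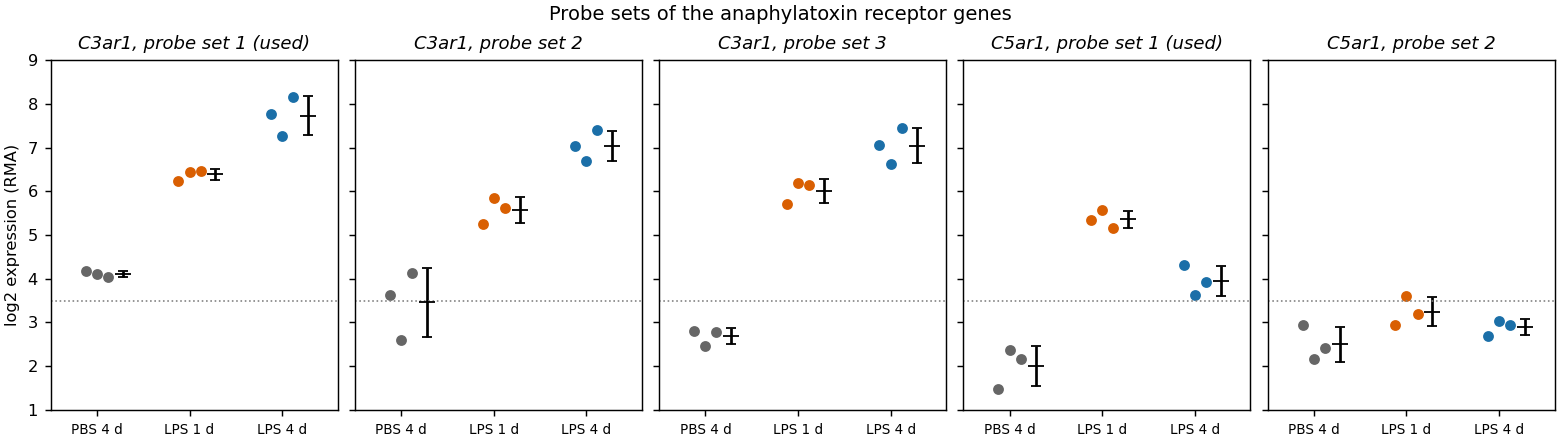
Log2 expression (vertical axis) of the 3 probe sets of *C3ar1* and the 2 of *C5ar1* on the 9 arrays, by group. Points are arrays, bars are the mean and SD of a group, and the dotted line is the background level of 3.49. All 3 *C3ar1* probe sets are highest at 4 d, whereas the second *C5ar1* probe set has its group means below background throughout.

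The receptors are genes of myeloid cells. Monocyte and recruited macrophage markers, 10 in number, had 8 genes above PBS at 1 d and 7 at 4 d, and from 1 d to 4 d 1 rose and 3 fell. *Ms4a7*, a macrophage membrane gene, was below background after PBS, and it was at least 1.30-fold higher at 1 d (adjusted p = 0.0208) and at least 26.7-fold higher at 4 d (adjusted p = 3.42e-06). *Chil3*, a chitinase-like gene of monocytes and macrophages, was also below background after PBS, was at least 21.4-fold higher at 1 d (adjusted p = 1.63e-05) and fell by 3.09 from 1 d to 4 d (adjusted p = 0.000658). *Ms4a6c*, with a PBS mean below background, was at least 21.1-fold higher at 1 d and at least 19.5-fold at 4 d (adjusted p = 3.47e-06 and 3.42e-06). The linear sum of the 10 was 257-291 in the PBS group, 1265-1496 in the LPS 1 d group and 986-1531 in the LPS 4 d group, so that the 2 LPS groups overlapped. The neutrophil markers given above had 7 of 11 higher at 1 d, where *C5ar1* was highest, and 1 of 11 at 4 d. The part of any of these cells in the receptor values was not tested.

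**Figure D4:**
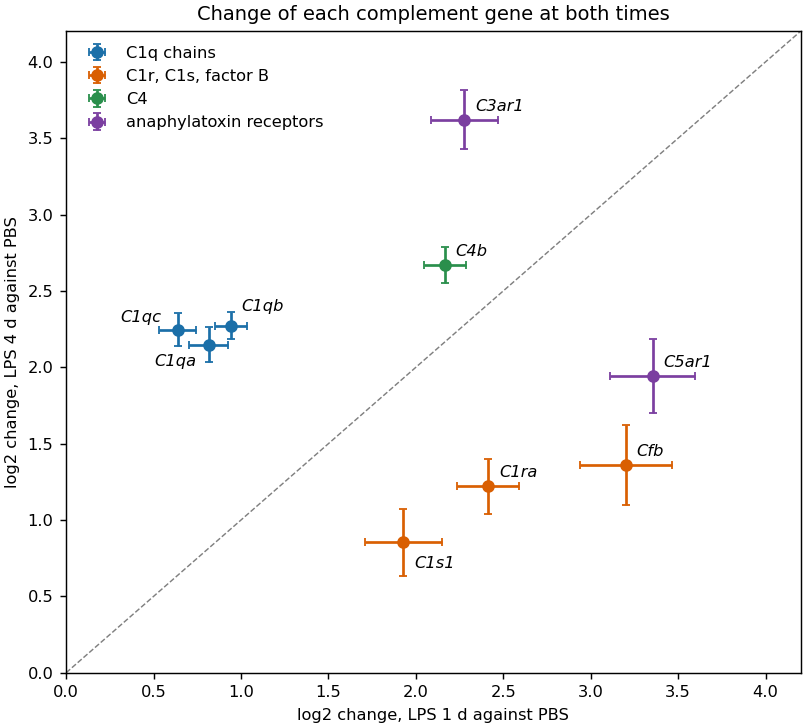
Log2 change relative to PBS at 1 d (horizontal axis) and at 4 d (vertical axis) after LPS for the 9 genes, coloured by role. Bars are standard errors of the fit, and the dashed line marks equal change at both times. The C1q genes, *C4b* and *C3ar1* lie above the line, and *C1ra*, *C1s1*, *Cfb* and *C5ar1* below it. Both axes use the same 3 PBS arrays. The PBS means of *C1ra*, *Cfb* and *C5ar1* were below background, and that of *C1s1* was only just above it. The sizes of the changes of these genes are therefore uncertain.

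Fewer of the remaining complement genes passed the test. Of 50 further complement genes listed, 41 were measured. At 1 d 6 of them were above PBS (against 3.86% of all genes), and at 4 d 7 were (against 4.21%), among them *C1rb* and *Itgax*, whose means in both groups were below background. None was lower in either comparison by limma, with 1 lower at 1 d and 0 at 4 d at an unadjusted p under 0.05. Their median log2 change was 0.089 at 1 d and 0.023 at 4 d. In all, 21 of the 41 were at or below background in every group, beside 5033 of the 17097 genes. From 1 d to 4 d, *Vtn* and *Itgax* were higher (2 of 41, against 1.84%) and *C1rb* was lower (1 of 41, against 1.37%).

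Among the regulators, *Serping1*, which encodes the C1 inhibitor of C1r and C1s, rose by 2.30 at 1 d (adjusted p = 0.000103) and 1.62 at 4 d (adjusted p = 0.00107), and its log2 change between the times of -0.68 did not pass the test (adjusted p = 0.119). It was the only one of 7 soluble regulators higher than PBS past both thresholds. *Clu*, the gene for clusterin, had log2 changes of 0.36 at each time (adjusted p = 0.0391 and 0.0399), under 1.5-fold. *Vtn*, the gene for vitronectin, which blocks the terminal complex, was at -0.53 at 1 d and 0.40 at 4 d relative to PBS, both under 1.5-fold, and rose by 0.93 between the times (adjusted p = 0.000472). Of 7 membrane regulators, 0 passed the test at either time, with *Cr1l*, the rodent C3 convertase regulator Crry, at 0.45 (adjusted p = 0.0182) and 0.38 (adjusted p = 0.0419), under 1.5-fold. Another *Cr1l* probe set above background had changes of the opposite sign, -0.16 and -0.14 (adjusted p = 0.405 and 0.458).

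*Cfp* encodes properdin, which stabilises the alternative convertase, and it rose by 1.25 at 1 d (adjusted p = 0.00687) and 1.81 at 4 d (adjusted p = 0.000812). Its log2 change of 0.56 from 1 d to 4 d did not pass the test (adjusted p = 0.25). Of 11 genes of the lectin pathway and classical proteases, *C1rb* was the only one to pass in a comparison with PBS, and *C2*, the partner of C4 in the convertase, was at 0.68 (adjusted p = 0.0881) and 0.56 (adjusted p = 0.159). The 6 measured genes of the terminal pathway (*Hc*, which encodes C5, among them) were at background in every group and passed no test.

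Of 9 other receptors, the integrin genes of complement receptor 3 rose at both times. *Itgam*, its alpha chain CD11b, rose by 1.92 at 1 d (adjusted p = 5e-04) and 2.03 at 4 d (adjusted p = 0.000439), and *Itgb2*, the shared beta chain CD18, by 2.13 (adjusted p = 3.39e-05) and 2.77 (adjusted p = 1.08e-05). *Itgax*, the alpha chain of complement receptor 4, passed at 4 d, by 0.96 over PBS (adjusted p = 0.00182) and 0.76 over 1 d (adjusted p = 0.011), but its means were below background in every group, with 3.25 at 4 d, so that the sizes of these changes are not measured. *Cd93*, a receptor once described as a C1q receptor, rose by 1.91 at 1 d (adjusted p = 7.32e-05) and 1.62 at 4 d (adjusted p = 0.000267) on the probe set used, while its other 2 probe sets were at or below background in every group and give no reading of a change.

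**Figure D5:**
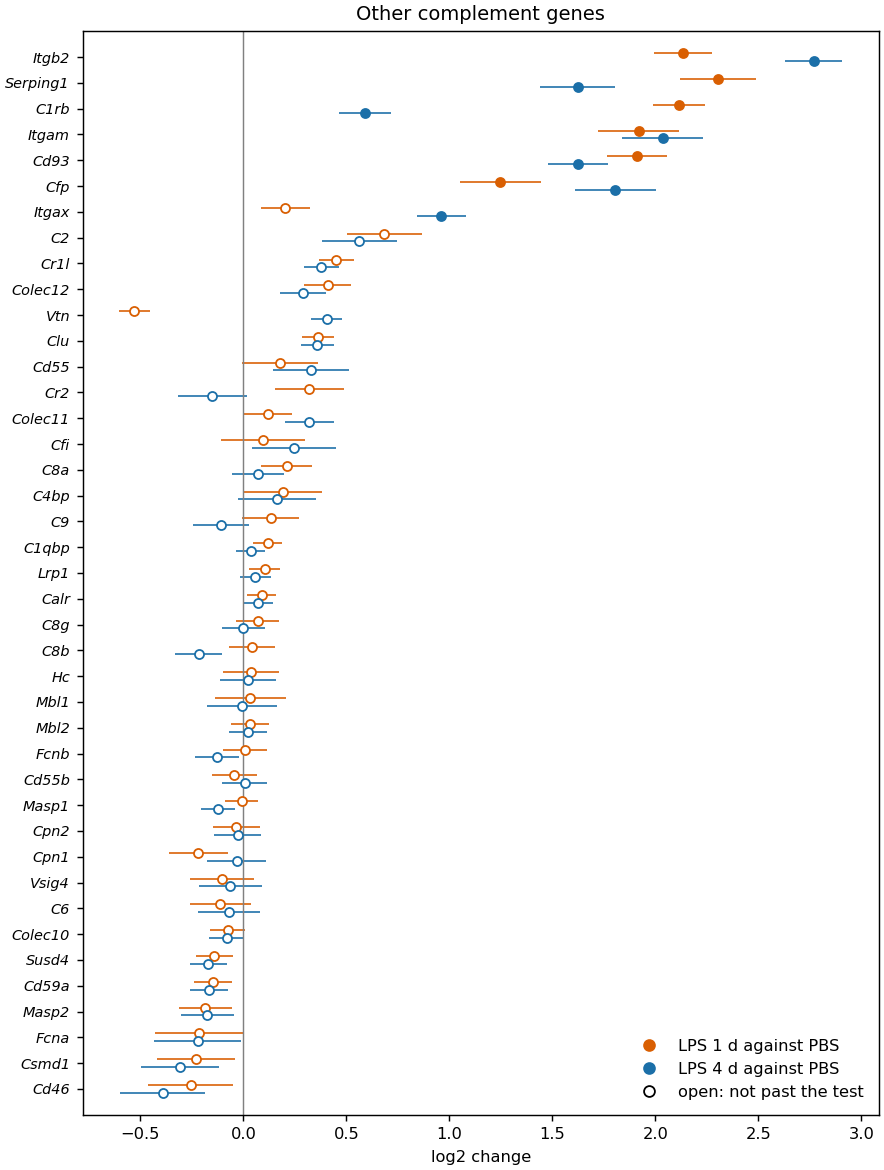
Log2 change relative to PBS (horizontal axis) of the 41 other complement genes at 1 d (orange) and 4 d (blue) after LPS, one row per gene. Filled points passed the test at that time and open points did not, and bars are standard errors of the fit. Filled points appear for 7 genes (*Itgb2*, *Serping1*, *C1rb*, *Itgam*, *Cd93*, *Cfp* and *Itgax*), and most others lie near 0.

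Finally, the genes with profiles most like those of single complement genes were listed among the 1302 other genes that passed the limma F-test over the 3 groups, as 7.67% of all genes did. Likeness was the root mean square difference of log2 profiles centred over the 9 arrays, and it is a description only. For *C1qa* the closest were *Ctsh*, the lysosomal protease cathepsin H (0.115), *Ly86* (0.128), *Cd68*, a lysosomal glycoprotein of macrophages (0.132), and *Tmem176a* (0.162). *Ctsh* read 6.56, 6.50 and 6.41 after PBS, 7.27, 7.07 and 7.37 at 1 d, and 8.82, 8.46 and 8.72 at 4 d, which is the stepwise pattern of *C1qa*. For *C3ar1* they were *Slamf9* (0.152), *Fyb* (0.196), the chemokine gene *Cxcl13* (0.196) and *Ptprc*, the gene for CD45 (0.298).

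For *C1ra* the closest were *Rnf213* (0.103), *Dcn* (0.150), *Slfn2* (0.171) and *Ddx58*, the gene for the RNA sensor RIG-I (0.172). *Rnf213* read 5.32, 5.53 and 5.33 after PBS, 7.27, 7.90 and 7.95 at 1 d, and 6.66, 6.44 and 6.85 at 4 d, with replicate 1 the lowest of the 1 d arrays as for *C1ra*. *Cfb* was nearest to *Rtp4* (0.249), *Selp*, the gene for P-selectin (0.303), *Msr1*, a scavenger receptor gene (0.317), and the interferon regulatory factor gene *Irf7* (0.323). *C5ar1* was nearest to *Tubb6* (0.214), *Ifitm3* (0.283), *Casp4* (0.293) and *Cebpd* (0.301). By the same measure *C1ra* lay 0.430 from *C1s1* and 0.469 from *Cfb*, and 1.08 from *C1qa*.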

How the data were processed

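RNA was measured on 9 Affymetrix HT MG-430 PM arrays. Per the labels and the study's methods, the authors used RMA for normalisation, in Affymetrix Expression Console (versions not given in the sources used here) and deposited log2 expression values per probe set. RMA corrects background, normalises between arrays and summarises probes, and it narrows differences between dim signals. Scanner output was not used here. Array medians lay between 4.32 and 4.37, the lowest correlation between arrays of a group was 0.992, and no 2 columns were identical. The number of arrays limits the precision.

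After 104 control entries were left out, 1 mean per group was fitted to all 45037 probe sets with limma 3.58.1 in R 4.3.3 (6 residual and 3.02 prior degrees of freedom), and p-values were adjusted over all of them by the Benjamini-Hochberg method. The procedure was tested on simulated data. The thresholds (adjusted p under 0.05, fold of at least 1.5) follow the study's methods, which used an analysis of variance. Since every array held a pool, p-values reflect how much pools differ, not single mice. Of the probe sets, 28898 had 1 symbol, 551 several and 15588 none, and 28689 symbols were matched to current names through Entrez identifiers with 0 changed.

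The members, gene lists and markers were chosen with earlier results of these data known. Named are the members, every further complement gene that passed a test (*C2*, *Clu*, *Cr1l* and *Hc* were added once values were known), at most 3 of the genes with the largest change in a marker list (*Drd1*, *Drd2*, *Penk*, *Camp*, *Elane*, *Col1a2*, *Pdgfra* and *Alb* were added once values were known), and the 4 genes most like each of 5 members. At-least folds set each array of the dim group at no less than the background level. Promoter windows are from a RefSeq table of GRCm38.p6. Slides and scan dates are not given in the sources used here. Alternatives were an intensity trend with robust moderation, ordinary tests, median centring, leaving out dim probe sets, a fit to 2 groups, the replicate number as a block, leaving out each array, a fold of 2, and other choices of probe set. Figures were drawn with matplotlib 3.10.9 in Python 3.11.15.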

Additional observations from a re-analysis of the deposited data

Results flagged for a closer look

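For 8 of the 9 genes, levels differed between 1 d and 4 d after LPS by the direct limma contrast of the 2 LPS groups. With no PBS group at 1 d, a change in the effect of LPS and an effect of time since surgery cannot be told apart here. The log2 difference, 4 d minus 1 d, was 1.33 for *C1qa*, 1.33 for *C1qb*, 1.61 for *C1qc* and 1.34 for *C3ar1*, each with 3 of 3 arrays at 4 d above all arrays at 1 d. It was -1.19 for *C1ra*, -1.08 for *C1s1*, -1.84 for *Cfb* and -1.41 for *C5ar1*, each with 3 of 3 arrays at 4 d below all arrays at 1 d. The differences of *C1s1* and *C5ar1* are the least secure of these, since leaving out single arrays took them past an adjusted p of 0.05.

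Within the 4 d group, replicate 2 was the lowest array for 8 of the 9 genes and replicate 1 the highest for 7. The pools differ in several marker lists as well, and at 1 d replicate 2 had the highest summed neutrophil level (4517, beside 1670 and 2568) and the lowest summed microglial level (692, beside 937 and 991). The part of these differences between pools in the values of the genes was not tested.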

How the results depend on the processing

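The counts of the 9 genes and of the 41 other complement genes kept within 1.5 times their reported values in 206 of 216 recomputed values, and no log2 change of a called gene changed sign. Among the 216 are counts reported as 0, and settings that cannot alter a gene with 1 probe set. The counts outside that range all concern the comparison of 4 d with 1 d. With ordinary tests without moderation, 0 of the 9 genes were lower in place of 4 (adjusted p between 0.0657 and 0.156 for *C1ra*, *C1s1*, *Cfb* and *C5ar1*), *C3ar1* was no longer higher (adjusted p = 0.06), and of the other genes 1 was higher in place of 2. With a fold of at least 2, 0 of the other genes were higher. That setting also cost the 3 C1q genes their calls at 1 d against PBS, although the count there stayed within 1.5 times. With trend and robust moderation, 2 other genes were lower (*C1rb* and *Serping1*) in place of 1. Leaving out each array in turn gave 2 to 4 of the 9 genes lower, with *C1ra* and *Cfb* remaining when replicate 1 or 2 at 1 d, or replicate 2 or 3 at 4 d, was absent, and 1 to 2 of the other genes lower, with *Serping1* added in the absence of replicate 1 at 1 d and *Cr2* in the absence of replicate 3 at 1 d. The falls of *C1s1* and *C5ar1* and the 4 d call of *Cfb* were the calls of the 9 genes most often lost, as given above. *C1s1* at 4 d passed with trend and robust moderation (adjusted p = 0.0265). The causes were not tested.

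Replicate numbers are shared between the groups. Deviations of arrays were weakly correlated, at -0.050 to 0.042 over 9 pairs of the same number and -0.045 to 0.068 over 18 pairs of different numbers. Between PBS and LPS 4 d, same-number pairs had 0.026 to 0.041 and different-number pairs -0.037 to 0.008. In the other comparisons of groups, same-number pairs had both signs. The best correlated array of another group, out of 3, had the same number in 10 of 18 cases. Whether the arrays were paired was not tested further. With the replicate number as a block, 9 of the 9 genes were higher at 1 d, 8 at 4 d, and 4 higher and 3 lower from 1 d to 4 d, where *C5ar1* no longer passed (adjusted p = 0.0608), and 6 other genes were higher at 4 d in place of 7. Signal near background limits the PBS values of *C1ra*, *C1s1*, *Cfb* and *C5ar1*.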
